A study of Homo sapiens with 10 samples.

Results

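The 10 genes described here code for feedback inhibitors of RAS signalling, and they were chosen by name: the dual-specificity phosphatases DUSP1, DUSP2, DUSP4, DUSP5, DUSP6 and DUSP10, the Sprouty proteins SPRY1 and SPRY2, and the Sprouty-related proteins SPRED1 and SPRED2. All 10 were found among the 50868 genes of the deposited table, each on 1 row. Growth factor receptors switch on RAS, which drives the kinase chain from RAF through MEK to ERK. ERK output in turn raises transcription of several of these genes, whose products shut the chain down: the phosphatases remove phosphate from MAP kinases, and Sprouty and SPRED proteins act upstream, around RAS and RAF. In myeloid leukemia cells this loop is of interest because activating lesions of RAS and of receptor tyrosine kinases such as KIT are frequent, also beside the t(8;21) translocation.

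RNA was sequenced from Kasumi-1, a human myeloid leukemia cell line carrying t(8;21), after retroviral transduction with HA-tagged E2-2, HA-tagged E2A, HA-tagged HEB or the empty MIGR1 vector. E proteins are transcription factors of the basic helix-loop-helix class, and E2-2, E2A and HEB are the products of TCF4, TCF3 and TCF12. GFP-positive cells were sorted 4 days after infection and each group is 1 library, so the groups describe forced expression in 1 cell line, 4 to 5 passages old, and no spread between cultures is known. ChIP-seq of the HA tag, with input, was not analysed here.

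Library totals ran from 14816708 to 17673090 counted reads, and each transduced gene was highest in its own library: TCF4 at 823 CPM in E2-2 against 0.256 in vector, TCF3 at 1312 CPM in E2A against 252 in vector, TCF12 at 836 CPM in HEB against 165 in vector. CPM is the read count scaled to a library of 1000000 reads after TMM scaling. The myeloblast list (10 genes, MPO and RUNX1T1 among them) had reads for every gene in every library. Its summed level was 14538 CPM in E2-2, 17058 in E2A, 23438 in HEB and 19766 in vector. Most of each sum was MPO, at 11254 CPM in E2-2, 13171 in E2A, 18014 in HEB and 14862 in vector. The list's median log2 fold over vector was -0.54 in E2-2, -0.24 in E2A and 0.0 in HEB. Against vector, 1 gene of the list was at least 2-fold higher and 0 were lower by as much. This was CD33, at 4.08-fold in E2-2, 3.03-fold in E2A and 3.18-fold in HEB. Markers of other cells were scarce: T and NK genes summed to 2.09 to 3.27 CPM, B cell genes to 9.43 to 12.8 CPM, and 9 epithelial, fibroblast or packaging cell genes to 43.7 to 57.9 CPM, of which EPCAM held at least 93.0% of the reads in each library. Among the B cell markers MS4A1 had 0 reads in E2A, HEB and vector and 1 in E2-2. In bulk RNA, fewer cells of a type and less RNA per cell cannot be told apart.

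E proteins bind DNA at E-boxes, so the letters before the members' start sites are given before the values. RefSeq windows of 250 bases before each annotated start (GRCh38.p14) were in the table used for 8 of the 10 members, 13 windows in all. The 4 windows printed here are those that lie outside the member's deposited locus. They come from 1 gene with its highest level in E2-2 (DUSP1), 2 with their lowest level there (SPRY1 and SPRY2), and 1 that differed little (DUSP2). Capitals mark CANNTG, the general E-box, and in DUSP1 also the cyclic AMP response element TGACGTCA.
DUSP1, chr5:172771196-172771445, minus strand: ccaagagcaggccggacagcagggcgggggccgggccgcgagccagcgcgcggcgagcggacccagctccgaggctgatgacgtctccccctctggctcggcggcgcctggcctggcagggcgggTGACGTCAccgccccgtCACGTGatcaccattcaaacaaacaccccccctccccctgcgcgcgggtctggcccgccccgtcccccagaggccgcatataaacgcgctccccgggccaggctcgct
SPRY1, chr4:123396545-123396794, plus strand: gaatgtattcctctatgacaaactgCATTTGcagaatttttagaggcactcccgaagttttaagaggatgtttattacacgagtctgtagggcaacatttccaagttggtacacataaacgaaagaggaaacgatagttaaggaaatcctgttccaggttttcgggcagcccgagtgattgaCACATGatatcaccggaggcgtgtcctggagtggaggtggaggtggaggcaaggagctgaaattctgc
SPRY2, chr13:80341127-80341376, minus strand: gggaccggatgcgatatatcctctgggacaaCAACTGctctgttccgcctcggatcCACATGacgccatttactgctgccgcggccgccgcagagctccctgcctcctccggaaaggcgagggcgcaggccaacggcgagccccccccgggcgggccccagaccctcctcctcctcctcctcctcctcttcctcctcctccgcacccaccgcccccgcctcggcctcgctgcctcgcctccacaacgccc
DUSP2, chr2:96145441-96145690, minus strand: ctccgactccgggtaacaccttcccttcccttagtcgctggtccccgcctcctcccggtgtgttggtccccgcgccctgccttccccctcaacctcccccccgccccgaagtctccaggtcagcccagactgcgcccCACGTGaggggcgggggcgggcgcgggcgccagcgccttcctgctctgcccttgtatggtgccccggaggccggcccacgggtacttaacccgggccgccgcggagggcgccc

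The DUSP1 and DUSP2 windows each held the E-box CACGTG, 108 and 113 bases before the start. In DUSP1 TGACGTCA lay 125 bases before it. SPRY1 held CACATG and CATTTG, and SPRY2 held CACATG and CAACTG. Searched on both strands, CANNTG was in 7 of the 13 member windows (53.8%), against 61.8% of all 35116 windows of that length. The form CAGCTG, which lies within CANNTG, was in 2 windows (15.4%), against 14.0% of all. These belong to inner start sites of DUSP10 and SPRED2, shown here with 10 bases on either side and CAGCTG in capitals; the SPRED2 stretch also holds CATCTG.
DUSP10, chr1:221737013-221737038, minus strand: cctgtggatgCAGCTGagattctgga
SPRED2, chr2:65366864-65366889, minus strand: acgcatctgtCAGCTGtcaggcttcc

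The form CACCTG, with its other strand CAGGTG, was in 0 of the 13 member windows, against 17.5% of all windows. TGACGTCA was in 1 (DUSP1), against 1.65% of all, and the RUNX motif TGTGGT, with its other strand ACCACA, was in 1 (SPRED2), against 11.0% of all. The single DUSP6 window held none of these letters. These matches describe the windows only, and binding was not measured in the data used here.

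Against vector, no member reached the call used here: a fold of at least 2, a 95% exact counting interval excluding 1 and at least 30 reads in both libraries together. In E2-2, 0 of 10 members were called higher and 0 lower, beside 8.45% and 3.55% of 13884 genes measured. In E2A the same counts were 0 and 0 (4.89% and 1.58% of 13901 genes), and in HEB 0 and 0 (2.55% and 1.23% of 13695 genes). Smaller differences had 2 directions in E2-2. Of the 6 phosphatase genes 4 (DUSP1, DUSP5, DUSP6 and DUSP10) lay above vector with an interval that excluded 1, as did SPRED2, while both Sprouty genes lay below it. Every interval covers counting error only, since there is 1 library per group.

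At a threshold of 1.5-fold, 5 of 10 members were higher and 1 lower in E2-2, beside 13.5% and 9.43% of all genes. In E2A 2 members were higher and 0 lower at that threshold (8.41% and 5.01% of genes), and in HEB 1 and 0 (4.8% and 3.73%). Counting every member whose interval excluded 1, whatever its fold, gave 5 above and 2 below in E2-2 (27.3% and 30.8% of genes), 2 and 1 in E2A (22.7% and 24.2%), and 4 and 1 in HEB (21.1% and 16.9%). The median log2 fold of the members was 0.46 in E2-2, 0.13 in E2A and 0.13 in HEB, beside -0.03, -0.01 and 0.01 over all measured genes. These comparisons share the vector library, so their likeness is no separate result, and the members were chosen with earlier results of these data known.

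**Figure D1:**
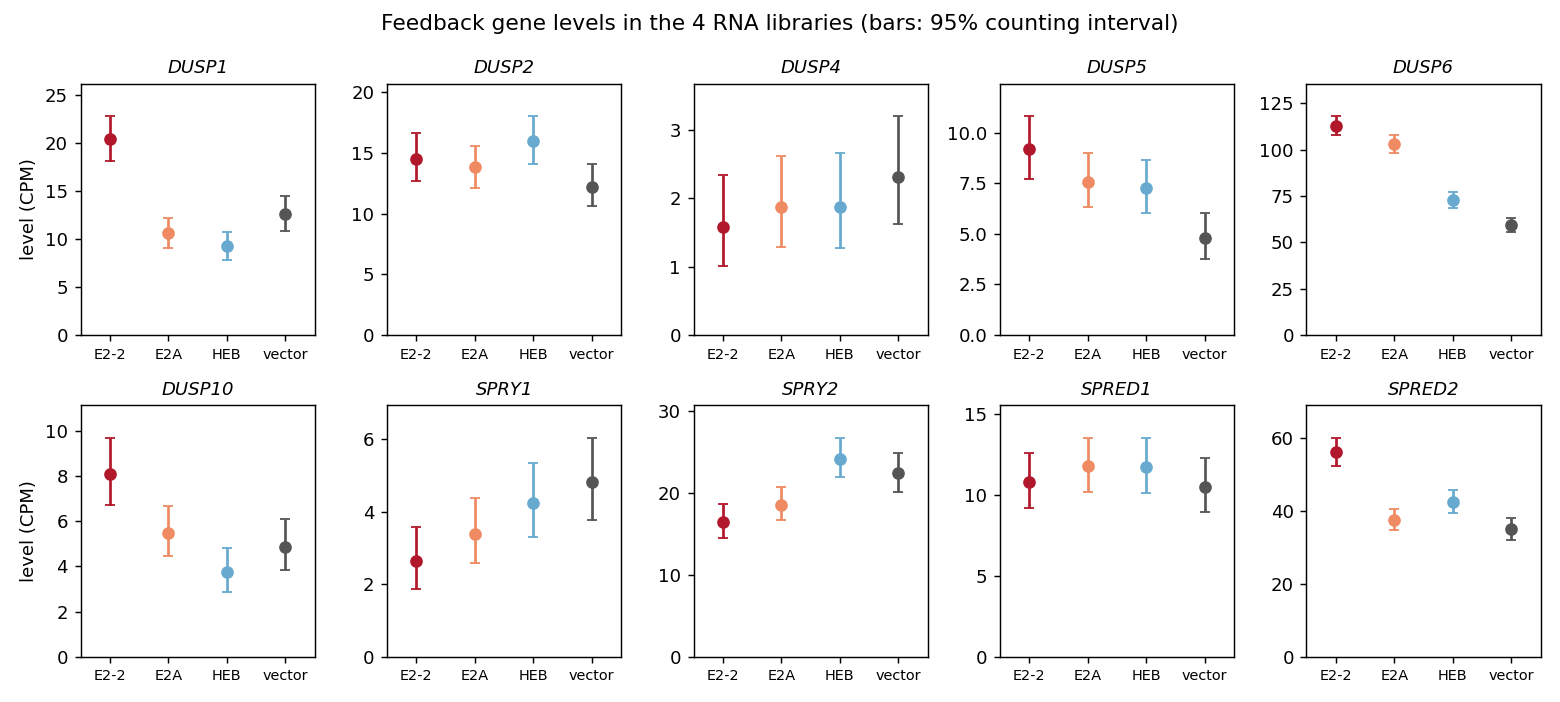
Level of each of the 10 feedback genes in CPM (linear axes from 0, 1 panel per gene) in the E2-2, E2A, HEB and vector libraries, 1 point per library, with bars for the 95% exact counting interval. DUSP6 stands at 113, 103, 72.9 and 59.2 CPM, while SPRY1 stands at 2.64, 3.40, 4.23 and 4.81 CPM.

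The ERK-directed phosphatases come first. DUSP6, a cytoplasmic phosphatase specific for ERK (ENSG00000139318, chr12:89347232-89353271), was the deepest-sequenced member, with 1711 reads in E2-2, 1818 in E2A, 1206 in HEB and 924 in vector. Its level was 113 CPM in E2-2, 103 in E2A, 72.9 in HEB and 59.2 in vector. All E protein libraries lay above vector, and each step in this order exceeded counting error. The fold over vector was 1.90 (1.76 to 2.07) in E2-2, 1.74 (1.60 to 1.88) in E2A and 1.23 (1.13 to 1.34) in HEB. Of all measured genes, 9.17% had a fold at least as high in E2-2, 6.75% in E2A and 14.0% in HEB. DUSP6 held 44.7% of the members' reads in E2-2, 48.2% in E2A, 37.7% in HEB and 35.1% in vector.

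DUSP5, a nuclear ERK phosphatase (ENSG00000138166, chr10:110497838-110511544), had 139 reads in E2-2, 134 in E2A, 120 in HEB and 75 in vector. This was 9.17 CPM in E2-2, 7.58 in E2A, 7.25 in HEB and 4.81 in vector. Here too vector was lowest, while neighbouring E protein libraries did not differ beyond counting error. The fold over vector was 1.91 (1.43 to 2.56) in E2-2, 1.58 (1.18 to 2.12) in E2A and 1.51 (1.12 to 2.04) in HEB. DUSP5 and DUSP6 were the members whose interval lay above 1 in all 3 comparisons with vector.

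DUSP4, a nuclear phosphatase of ERK and JNK (ENSG00000120875, chr8:29333064-29350668), was the member with the fewest reads, 24 in E2-2, 33 in E2A, 31 in HEB and 36 in vector. Its level was 1.58, 1.87 and 1.87 CPM in E2-2, E2A and HEB and 2.31 CPM in vector. The fold of 0.686 in E2-2 had an interval from 0.391 to 1.18, and the intervals in E2A and HEB also included 1. A difference between libraries was not detectable for DUSP4 at this depth.

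Among the other phosphatases, which act on p38 and JNK or on several MAP kinases, DUSP1 and DUSP10 were highest in E2-2 and lowest in HEB, while DUSP2 was highest in HEB. DUSP1, a nuclear phosphatase and immediate early gene that is also induced by stress and glucocorticoids (ENSG00000120129, chr5:172768090-172771195), had 310 reads in E2-2, 187 in E2A, 153 in HEB and 196 in vector. Its level was 20.4 CPM in E2-2, 10.6 in E2A, 9.25 in HEB and 12.6 in vector. E2-2 stood above the other 3 libraries, and HEB was lowest. Against vector the fold was 1.63 (1.36 to 1.96) in E2-2, 0.842 (0.686 to 1.03) in E2A and 0.736 (0.592 to 0.914) in HEB.

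DUSP10, a phosphatase of p38 and JNK (ENSG00000143507, chr1:221701424-221742176), had 123 reads in E2-2, 97 in E2A, 62 in HEB and 76 in vector. The levels were 8.11 CPM in E2-2, 5.49 in E2A, 3.75 in HEB and 4.87 in vector, so E2-2 was again highest and HEB lowest. The fold over vector was 1.66 (1.24 to 2.25) in E2-2, 1.13 (0.826 to 1.54) in E2A and 0.769 (0.541 to 1.09) in HEB. DUSP2, a nuclear phosphatase of activated blood cells (ENSG00000158050, chr2:96143166-96145440), had 220 reads in E2-2, 243 in E2A, 264 in HEB and 191 in vector. Its 14.5, 13.8 and 16.0 CPM in E2-2, E2A and HEB lay close to 12.2 CPM in vector. Only in HEB did the interval of its fold exclude 1 (1.30-fold, 1.08 to 1.58), and no library differed from its neighbour in the order of levels beyond counting error.

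Handling and stress genes, a list of 11 that includes FOS, JUN, ATF3 and HSPA1A, summed to 317 CPM in E2-2, 301 in E2A, 215 in HEB and 222 in vector. Their part in the DUSP1 values was not tested. In E2-2, 1 of the 11 was called higher (JUN, 2.60-fold, 2.38 to 2.83) and 0 lower, beside 8.45% and 3.55% of all measured genes. In E2A 2 were higher, HSPA1A (2.46-fold, 2.23 to 2.72) and HSPA1B (2.26-fold, 2.00 to 2.56). The 2 lower there were FOS and FOSB, beside 4.89% higher and 1.58% lower of all measured genes. The calls in E2-2 and E2A were thus of different genes, although the sums lay close. FOS stood at 7.32 CPM in E2-2, 2.04 in E2A, 2.96 in HEB and 4.81 in vector. FOSB stood at 12.5 CPM in E2-2, 4.36 in E2A, 4.53 in HEB and 8.72 in vector. The level of each was above vector in E2-2 and below it in E2A and HEB, as that of DUSP1 was. JUN and HSPA1A did not share this order.

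The Sprouty genes lay on the other side of vector in E2-2. SPRY1 (ENSG00000164056, chr4:123396795-123403760), an inhibitor of RAS activation downstream of receptor tyrosine kinases, had 40 reads in E2-2, 60 in E2A, 70 in HEB and 75 in vector. Its level was 2.64 CPM in E2-2, 3.40 in E2A, 4.23 in HEB and 4.81 in vector. No neighbours in this order differed beyond counting error, but E2-2 and vector did, with a fold of 0.549 (0.364 to 0.816). In E2A the fold was 0.706 (0.494 to 1.01) and in HEB 0.880 (0.626 to 1.24). Of all measured genes, 5.27% had a fold at least as low as that of SPRY1 in E2-2.

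SPRY2, a second inhibitor of this kind (ENSG00000136158, chr13:80335976-80340951), had 250 reads in E2-2, 329 in E2A, 400 in HEB and 350 in vector. The levels were 16.5 CPM in E2-2, 18.6 in E2A, 24.2 in HEB and 22.4 in vector. E2-2 and E2A lay below HEB and vector, with a fold over vector of 0.735 (0.622 to 0.867) in E2-2, 0.830 (0.712 to 0.967) in E2A and 1.08 (0.931 to 1.25) in HEB.

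The SPRED genes code for membrane-associated inhibitors that recruit neurofibromin, a RAS GTPase-activating protein. SPRED2 (ENSG00000198369, chr2:65310851-65432637) had 849 reads in E2-2, 663 in E2A, 703 in HEB and 545 in vector. Its level was 56.0 CPM in E2-2, 37.5 in E2A, 42.5 in HEB and 34.9 in vector, with E2-2 above the other libraries. The fold over vector was 1.60 in E2-2 (1.44 to 1.79), 1.07 in E2A (0.957 to 1.21) and 1.22 in HEB (1.09 to 1.36). SPRED1 (ENSG00000166068, chr15:38252326-38357249) had 164 reads in E2-2, 208 in E2A, 194 in HEB and 164 in vector. Its 10.8, 11.8 and 11.7 CPM in E2-2, E2A and HEB and 10.5 CPM in vector spanned a range of 1.12-fold, the narrowest of the 10 members, and no interval excluded 1.

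**Figure D2:**
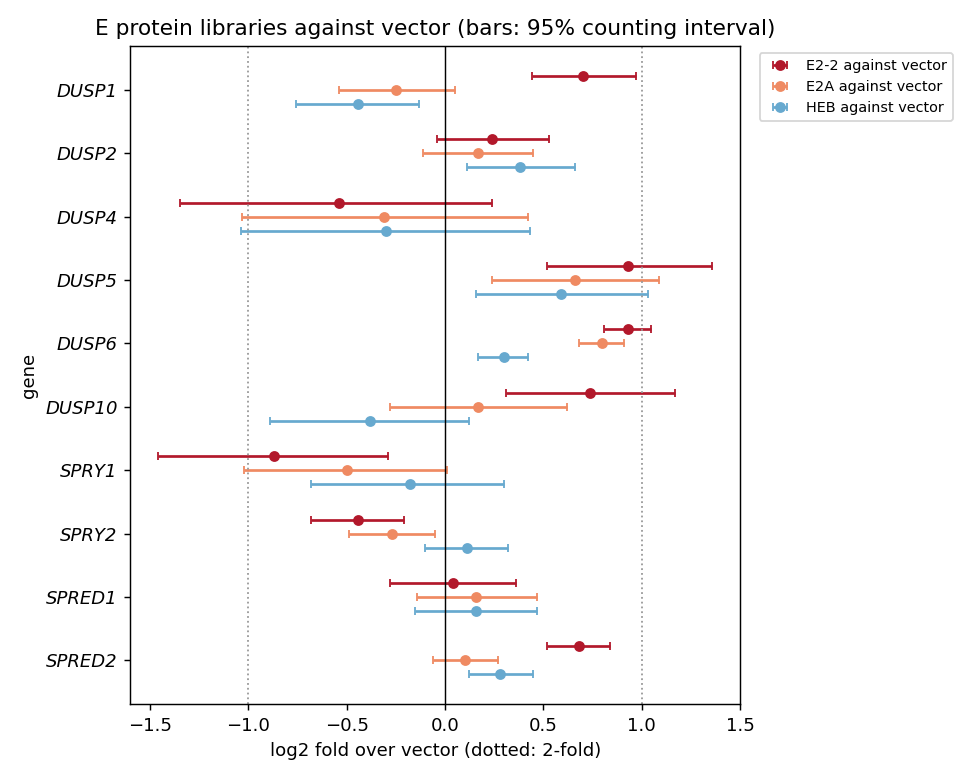
Log2 fold of each member over vector in E2-2, E2A and HEB, with 95% exact counting intervals and dotted lines at 2-fold. DUSP6 lies at 0.93, 0.80 and 0.30, SPRY1 at -0.87, -0.50 and -0.18, and no point passes a dotted line.

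**Figure D3:**
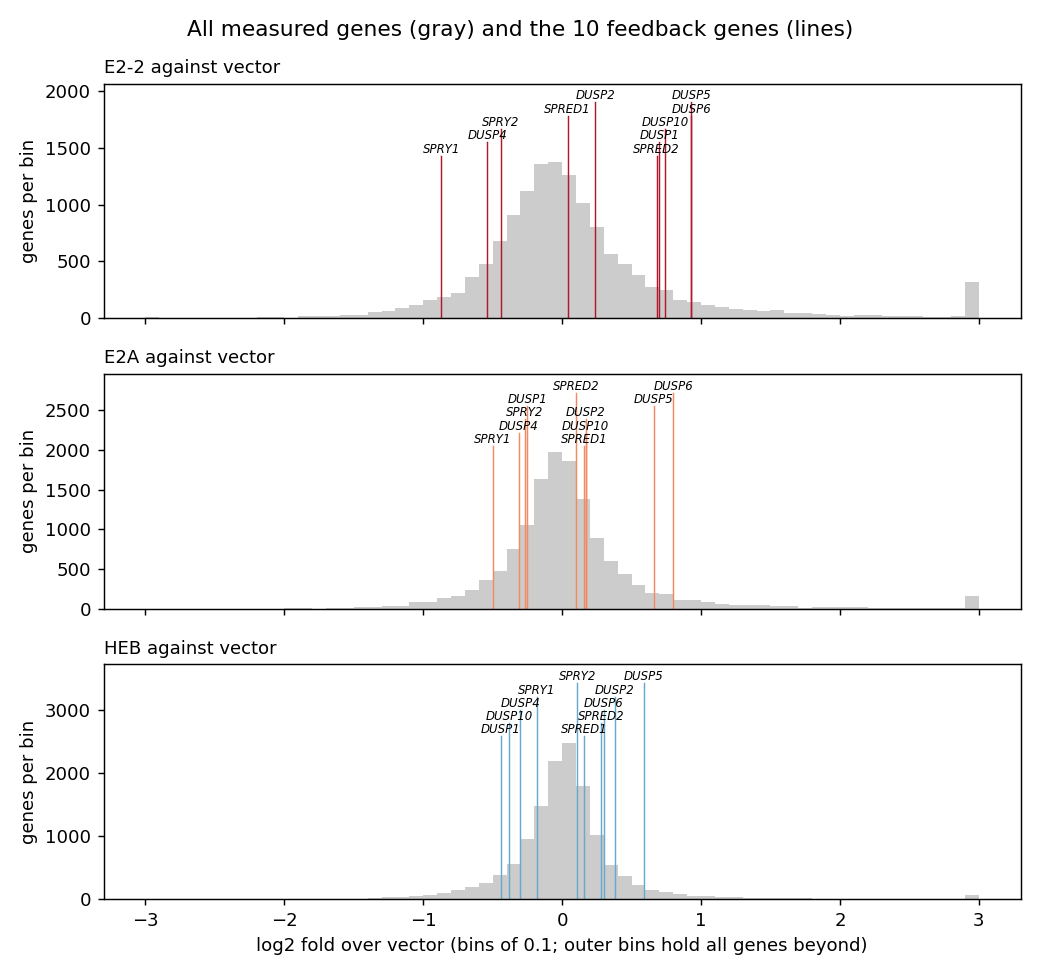
Number of genes per bin of log2 fold over vector (gray, bins of 0.1, outer bins holding all genes beyond) in E2-2, E2A and HEB, with a line at each member's fold. In E2-2, 10% of genes lie below -0.61 and 10% above 0.86, and SPRY1 (-0.87), DUSP5 (0.93) and DUSP6 (0.93) lie outside those bounds.

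Across the 4 libraries, 5 members were highest in E2-2, 1 in E2A, 2 in HEB and 2 in vector, and 3 were lowest in E2-2, 0 in E2A, 2 in HEB and 5 in vector. The same shares over all genes were not counted, so these counts are no result about the members. For DUSP2, DUSP4, SPRY1 and SPRED1, no neighbouring libraries in the order of levels differed beyond counting error. Summed over the 10 members the level was 253 CPM in E2-2, 213 in E2A, 194 in HEB and 169 in vector, of which DUSP6 supplied the largest share. The widest ranges over the libraries were those of DUSP1 (2.21-fold) and DUSP10 (2.16-fold), both from HEB as the lowest to E2-2 as the highest. The genes with the profile nearest to each over the 4 libraries, by Euclidean distance of centred log2(CPM + 0.5) among 11844 genes, were AKAP13 (0.0888), CREBRF (0.0924) and RNF103 (0.165) for DUSP1. For DUSP10 they were APOLD1 (0.0591), UBL7-AS1 (0.0857) and GSN (0.112). AKAP13, for example, stood at 122 CPM in E2-2, 66.0 in E2A, 61.3 in HEB and 77.1 in vector. Each profile has only 4 points.

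The direct comparisons of E proteins asked where they differ from each other, without the vector library. The transduced genes stood at unlike levels, TCF4 at 823 CPM in E2-2, TCF3 at 1312 in E2A and TCF12 at 836 in HEB. Their folds over vector were 3210, 5.2 and 5.08. The kind and the amount of E protein therefore cannot be told apart here. These comparisons also share libraries with each other. Between E2-2 and HEB, 2 of 10 members were called higher in E2-2 and 0 lower, beside 6.09% and 1.57% of 13891 genes. They were DUSP1, at 2.21-fold (1.82 to 2.70), and DUSP10, at 2.16-fold (1.58 to 2.99). At 1.5-fold, 3 members were higher, DUSP6 (1.55-fold, 1.44 to 1.67) being the other, and 1 was lower, SPRY1 at 0.624-fold (0.412 to 0.932), beside 10.7% and 6.03% of genes. The immediate early genes FOS (2.47-fold, 1.75 to 3.53), FOSB (2.76-fold, 2.11 to 3.66) and JUN (2.51-fold, 2.31 to 2.73) of the handling and stress list were also called higher in this comparison, and their part in the DUSP1 and DUSP10 values was not tested. SPRY2 was at 0.682-fold (0.580 to 0.801) and SPRED2 at 1.32-fold (1.19 to 1.46) in E2-2 over HEB.

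Between E2-2 and E2A, 0 members were called higher and 0 lower at 2-fold (3.63% and 1.61% of 14066 genes). At 1.5-fold 1 was higher, DUSP1 at 1.93-fold (1.61 to 2.33), and 0 were lower (6.91% and 4.15% of genes). SPRED2 was at 1.49-fold (1.35 to 1.65), DUSP10 at 1.48-fold (1.12 to 1.95) and DUSP6 at 1.10-fold (1.03 to 1.17) in E2-2 over E2A. For SPRY1 (0.777-fold, 0.507 to 1.18) and SPRY2 (0.885-fold, 0.748 to 1.05) the interval included 1. Between E2A and HEB, 0 members were called higher and 0 lower (2.38% and 0.696% of 13944 genes). Here DUSP6 was at 1.41-fold (1.31 to 1.52), DUSP10 at 1.47-fold (1.05 to 2.05) and SPRY2 at 0.770-fold (0.664 to 0.894) in E2A over HEB.

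**Figure D4:**
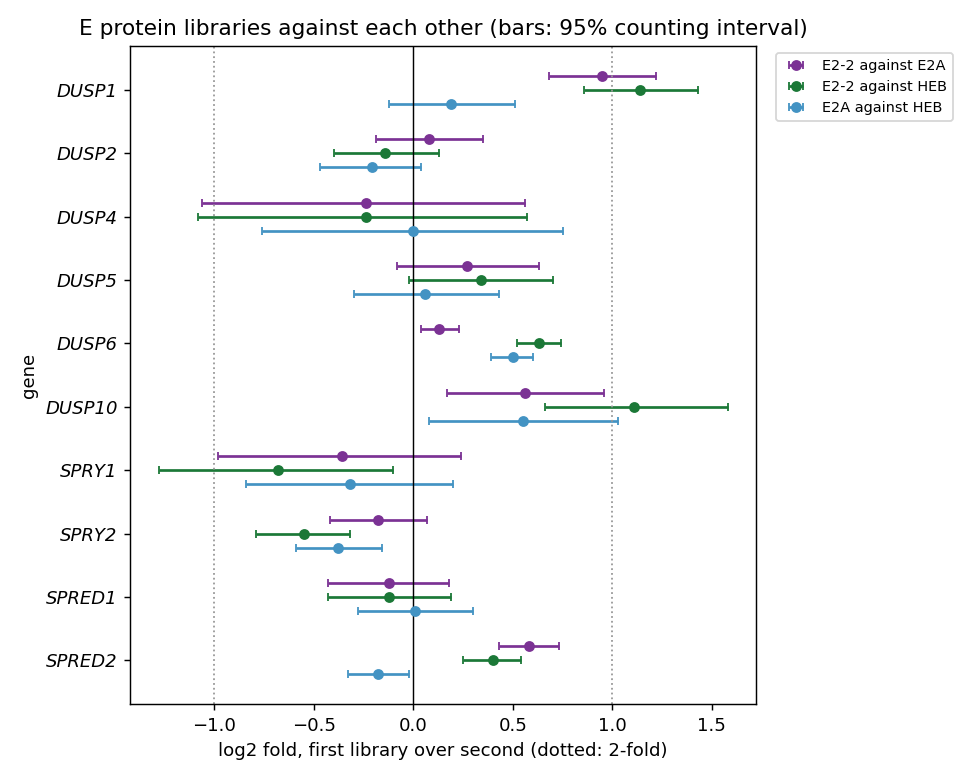
Log2 fold of each member between E protein libraries, first named over second, with 95% exact counting intervals and dotted lines at 2-fold. DUSP1 (1.14) and DUSP10 (1.11) in E2-2 over HEB are the points beyond 2-fold.

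The rest of the pathway was read from lists of named genes, counted by the 2-fold call. Over all measured genes this call was met by 8.45% higher and 3.55% lower in E2-2, 4.89% and 1.58% in E2A, and 2.55% and 1.23% in HEB. Among 13 other phosphatase, Sprouty and related genes, 11 were measured in E2-2 against vector, of which 2 were higher and 0 lower. Whatever the fold, the interval lay above 1 for 5 of them and below 1 for 3, beside 27.3% and 30.8% of all measured genes. DUSP7, another cytoplasmic ERK phosphatase, had 1757 reads in E2-2, against 692 in vector, so its fold was 2.61 (2.39 to 2.86). RASAL1, a RAS GTPase-activating protein gene, was 15.4-fold higher (4.95 to 77.6), from 45 reads in E2-2, against 3 in vector. Of the 10 genes of this list measured in E2A, and of the 10 in HEB, 0 were higher and 0 lower than in vector. DUSP7 stood there at 59.9 and 63.7 CPM, against 44.4 CPM in vector. DUSP22, a phosphatase gene of this list that was not called, stood at 107 CPM in E2-2 and 137 CPM in vector. DUSP22 was named after its values were seen.

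In the chain from RAS to ERK, 2 of 20 measured genes were higher and 0 lower in E2-2, near the share of all genes (8.45% and 3.55%), and 0 and 0 in E2A and in HEB. Both called genes code for docking proteins, GAB1 (2.71-fold, 2.46 to 2.98) and GAB2 (2.26-fold, 2.04 to 2.50). The list's median log2 fold was 0.00 in E2-2, -0.01 in E2A and 0.03 in HEB. NRAS, for example, was at 198, 199 and 209 CPM in E2-2, E2A and HEB and 210 CPM in vector. It was named after its values were seen.

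Of 14 measured RAS regulators, 4 were higher and 0 lower in E2-2, 1 and 0 in E2A and 1 and 0 in HEB, with a median log2 fold of 0.52, 0.41 and 0.17. DAB2IP, a RAS GTPase-activating protein gene, had a fold over vector of 14.2 in E2-2 (9.48 to 22.3), of 11.3 in E2A (7.52 to 17.7) and of 2.56 in HEB (1.60 to 4.23). In E2-2, RASAL3, of the same class, was higher by 2.30-fold (2.00 to 2.64). The exchange factor genes RASGRP1 (2.21-fold, 1.44 to 3.45) and RASGRP2 were called higher in E2-2 as well.

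Among 14 measured p38 and JNK pathway kinases, 2 were higher and 2 lower in E2-2, 1 and 0 in E2A, and 0 and 1 in HEB. MAPK13, a p38 isoform gene, had a fold over vector of 2.90 in E2-2 (2.38 to 3.56) and of 2.21 in E2A (1.80 to 2.72). MAP2K3, which codes for a kinase that activates p38, had a fold of 2.19 in E2-2 (1.94 to 2.48). MAPK12, another p38 isoform gene, was lower in E2-2, by 2.02-fold (1.80 to 2.28). MAPK11, also of the p38 group, was lower in E2-2 by 2.06-fold (1.67 to 2.56), and in HEB by 2.24-fold (1.81 to 2.77).

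Upstream, 13 of 20 receptor genes were measured. In E2-2 6 were higher and 1 lower, in E2A 5 and 0, and in HEB 4 and 1. CSF1R, a receptor tyrosine kinase of the monocyte lineage, was at 42.6 CPM in E2-2, 10.8 in E2A, 6.83 in HEB and 1.47 in vector. FGFR3 was at 34.6, 27.8 and 5.26 CPM in the E2-2, E2A and HEB libraries and 1.28 CPM in vector, and FLT3 at 45.6, 27.7 and 12.5 CPM and 4.17 CPM in vector. EPOR was at 55.7, 30.3 and 19.9 CPM and 7.44 CPM in vector. These 4 genes ran in the order E2-2, E2A, HEB and vector, as DUSP6 did, and so did GAB1, ELK3 and DOK3 of other lists. In DUSP5, of the steps in this order, only that from HEB to vector exceeded counting error. The share of all genes with this order was not counted, so it sets up no link between the receptors and the phosphatases. KIT, named after its value was seen, was at 626, 770 and 742 CPM and 652 CPM in vector.

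Downstream, of 19 genes of ERK output measured in E2-2, 4 were higher and 1 lower. ETV1, an ETS factor gene, was 16.5-fold higher (5.30 to 82.6), from 48 reads in E2-2, against 3 in vector. JUN (2.60-fold) and ELK3 (2.41-fold, 2.26 to 2.58) were higher and MYC 2.33-fold (2.21 to 2.45) lower. The other gene called higher in E2-2 was EGR1 (2.16-fold, 1.68 to 2.79). In E2A 1 of 18 was higher, also EGR1, at 2.36-fold (1.85 to 3.02), and 2 were lower, FOS (by 2.36-fold, 1.57 to 3.62) and FOSB. In HEB 1 of 19 was higher, EGR3 at 8.25-fold (2.95 to 31.9), from 35 reads in HEB, against 4 in vector, and 0 lower. EGR3 had 21 reads in E2-2, too few with the 4 in vector to be measured by the rule used. Thus the genes of this list had calls in both directions, and its median log2 fold was 0.15 in E2-2, 0.05 in E2A and 0.05 in HEB.

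Of the other feedback genes, which act on receptors, cytokine signals or G proteins, 8 of 19 measured were higher and 0 lower in E2-2, 2 of 18 and 0 in E2A, and 2 of 17 and 0 in HEB. SOCS1, an inhibitor of cytokine receptors, had 107 reads in E2-2, 34 in E2A, 31 in HEB and 4 in vector. RASSF2, which codes for a RAS-binding protein, had a fold of 3.49 (3.19 to 3.83) in E2-2, and RGS2, a brake on G protein signals, of 4.17 (3.11 to 5.67). DOK3, an adaptor that dampens receptor signals, had a fold over vector of 3.26 in E2-2 (3.10 to 3.43), of 2.65 in E2A (2.52 to 2.80) and of 2.14 in HEB (2.03 to 2.25). In the deposited annotation, 6 members, the phosphatases, carry the KEGG term for the MAPK signalling pathway. Of the genes with that term, 18 of 166 measured were higher and 7 lower in E2-2 (10.8% and 4.22%), 12 and 2 of 164 in E2A (7.32% and 1.22%), and 3 and 1 of 161 in HEB (1.86% and 0.621%). Over all measured genes the shares were 8.45% and 3.55% in E2-2, 4.89% and 1.58% in E2A, and 2.55% and 1.23% in HEB.

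**Figure D5:**
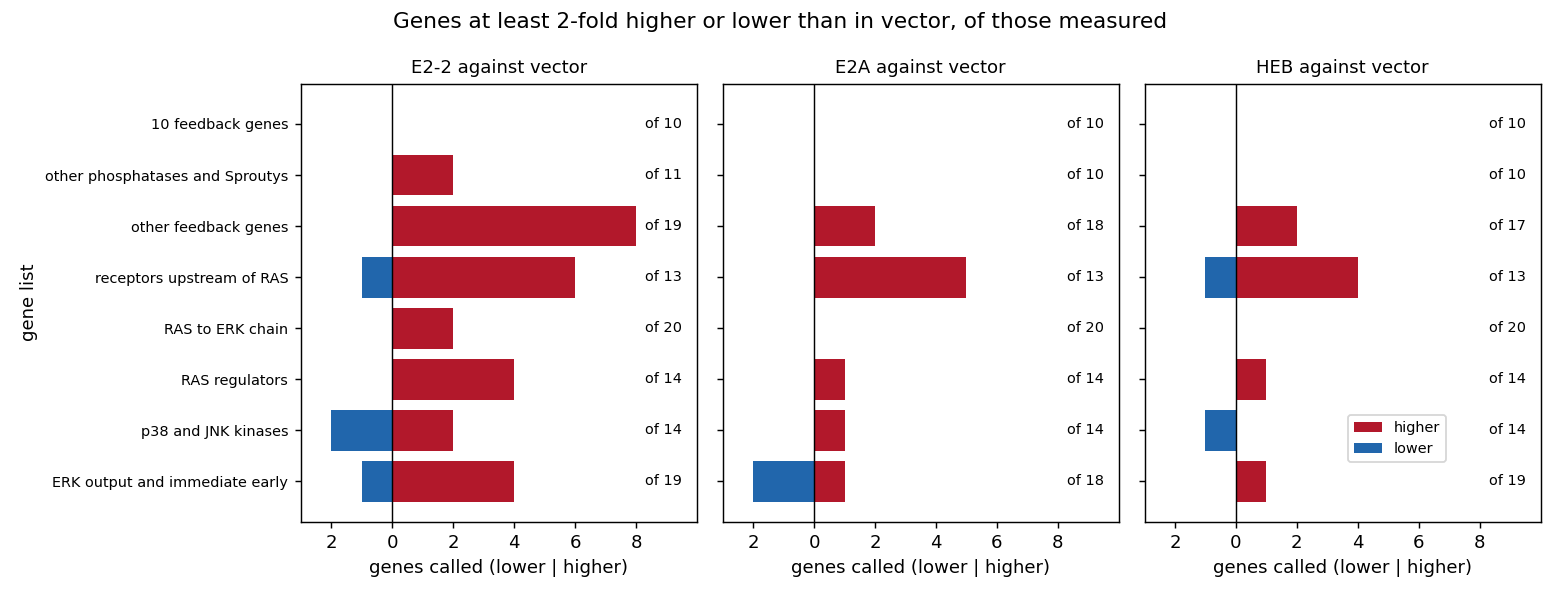
Number of genes at least 2-fold higher (red, right) or lower (blue, left) than in vector for the 10 feedback genes and 7 pathway lists in E2-2, E2A and HEB, with the number measured beside each bar. The 10 feedback genes have no call in any panel, while the receptor list has 6, 5 and 4 higher genes.

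Levels per length were not compared between genes, and the shares and sums of member reads given here are not scaled to length. The deposited FPKM values imply a length of 8166 nucleotides for DUSP6, whose locus spans 6040, and likewise exceed the locus of DUSP2 and SPRY1. Of the other genes of the table, 1 overlaps DUSP6 and had 3 reads in E2-2, 5 in E2A, 1 in HEB and 2 in vector. Another overlaps DUSP1, with 1, 2 and 0 reads in E2-2, E2A and HEB and 0 in vector, and AC012370.2 within SPRED2 had 0 in all 4 libraries. How reads in overlapping parts were assigned is not given in the sources used here.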

How the data were processed

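RNA-seq was read from 4 libraries of GFP-sorted Kasumi-1 cells, 1 per group. The authors deposited whole-number read counts per Ensembl gene and, per the file headers, FPKM values. Per the submitters' processing notes, the tools were HTSeq 0.9.1, TopHat2 2.0.9, MACS2 2.1.1.20160309 and Bowtie2 2.2.9, and the builds hg38 and hg19, with no role stated. The gene annotation and the use of strand were not stated. Deposited positions are those of GRCh38: all 10 members overlap their RefSeq gene on that build.

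Counts were scaled by TMM (edgeR 4.0.16, R 4.3.3), and folds carry exact conditional binomial (Clopper-Pearson) 95% intervals. These cover counting error only, because there is 1 library per group. PCR copies are counted too, and the intervals make no allowance for them. With single libraries there is no test, and p-values are left out. Python 3.11.15, numpy 2.4.6, scipy 1.17.1, pandas 2.3.3 and matplotlib 3.10.9 were used. Calling and intervals were checked on simulated counts with counting error only and set changes larger than those of any member. That check could not cover differences between cultures, PCR copies or smaller folds. A gene is measured with at least 30 reads in the 2 libraries. For a gene without reads in 1 library, 3 reads set the bound, 0.170 to 0.198 CPM. Promoter windows are RefSeq's (GRCh38.p14). The members and lists were chosen with earlier results of these data known. All members are named, and from each list up to 4 called genes per comparison with vector, by the interval bound farthest from 1. EGR1 in E2-2 is named beyond these. Alternatives were DESeq2 1.42.0 size factors, summed counts, TMM over protein-coding genes by RefSeq type, FPKM, other read minima and other fold thresholds. The KEGG count was added after the data were seen.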

Additional observations from a re-analysis of the deposited data

Results flagged for a closer look

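DUSP1 is listed here because its difference from vector had opposite signs with 2 of the E proteins, each beyond counting error. Its log2 fold over vector was 0.70 in E2-2 and -0.44 in HEB, from 310 and 153 reads, against 196 reads in vector. With 1 library per group this difference between the E proteins was not tested across samples.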

How the results depend on the processing

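Scaling hardly moved the members. Over DESeq2 size factors, TMM on protein-coding genes, summed counts and FPKM, the log2 fold of a member against vector shifted by at most 0.02, 0.03, 0.05 and 0.05, and no sign changed. FPKM gave the ratios of counts over summed counts, so it is no independent unit. Read minima of 100 or none left every count of called members within 1.5 times that reported. The minimum of 100 reads did move medians. The median log2 fold of the members went from 0.46 to 0.68 in E2-2 against vector and from 0.11 to 0.34 in E2-2 against HEB. In E2A against vector it went from 0.13 to 0.16. The fold threshold decided the counts. At 1.5-fold, 5 members were higher and 1 lower in E2-2 against vector, 2 higher in E2A, 1 higher in HEB, 1 higher in E2-2 against E2A and 1 lower in E2-2 against HEB, where the 2-fold rule gave 0 in each. At 3-fold, 0 members were higher in E2-2 against HEB, where the 2-fold rule gave 2. Depth limits DUSP4 and SPRY1 most, with 24 and 40 reads in E2-2. Differences between cultures are unknown.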

Other observations

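SPRY4, a Sprouty gene outside the 10 members, had 14 reads in E2A, 1 in E2-2, 2 in HEB and 0 in vector, too few to be measured by the rule used. ETV4 and ETV5, ETS factor genes that respond to ERK signalling, were not called. ETV5 stood at 32.2 CPM in E2-2, 29.4 in E2A, 26.0 in HEB and 17.1 in vector, and ETV4 at 5.14, 6.90 and 5.62 CPM in E2-2, E2A and HEB and 4.55 CPM in vector. FOSL1, another gene induced by ERK, stood at 4.15 CPM in E2-2, 7.64 in E2A, 5.98 in HEB and 8.14 in vector. PEBP1, which codes for the RAF kinase inhibitor protein, stood at 333, 329 and 480 CPM in E2-2, E2A and HEB and 528 CPM in vector. These genes were named after their values were seen.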
